A study of Mus musculus with 31 samples.

Results

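The comparison set the distal colon of mice given the food colour E171 against time-matched controls after 2 days of exposure. E171 is food-grade titanium dioxide, a white pigment made of nano- and micro-sized particles. The members were 8 arrays of the 31 in the series, chosen by their sample titles: 4 arrays of the CRC + E171 group and 4 of the CRC group. All 8 mice were BALB/c and a few weeks of age, and all had received azoxymethane (AOM), a carcinogen that alkylates DNA, by intraperitoneal injection before the exposure. All 8 were also drinking dextran sodium sulphate (DSS), an irritant of the colonic lining, when the tissue was taken. The CRC + E171 mice received 5 mg/kg bw/day of E171 in water by gavage, whereas the CRC mice received water alone. The doses and groups follow the sample titles and treatment labels, since the labels of the gavage itself name vehicle for all 8 mice. Each group held 2 males (M1 and M2) and 2 females (F1 and F2), each from a mouse of its own, and no group without AOM and DSS was compared here. Xist, the RNA of the silenced X chromosome, and the Y-linked genes Kdm5d and Uty placed all 8 arrays in their labelled sex. Of the later arrays that share the fit, the CRC replicate M2 of 14 days was labelled male and had a female pattern (Xist -1.60, Kdm5d -6.54), and without it 649 DEG were called at 2 days in place of 690.

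The wall of the distal colon holds an epithelium of absorptive colonocytes, mucus-secreting goblet cells and scattered hormone-secreting cells, which is renewed from stem cells at the crypt base under Wnt signalling. Below it lie a stroma with lymphoid follicles and a thick coat of smooth muscle. AOM followed by DSS is a widely used model of colitis-associated colorectal cancer, and in its first days DSS erodes the epithelium and draws in myeloid cells. The question asked by the comparison was which transcripts an early dose of E171 alters on top of that injury.

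Values are the log2 of the processed spot signal minus the 75th percentile of each array, so that 0 is the brightness of a fairly bright probe and a step of 1 is a 2-fold difference. Fold changes are CRC + E171 over CRC. A gene was called differentially expressed (DEG) in LIMMA, fitted on all 31 arrays, if it was 1.5-fold or more higher or lower with an unadjusted p below 0.05. The signal differed between the groups before scaling: the 75th percentile was 3542 to 5289 on the 4 CRC arrays and 2103 to 3016 on the 4 CRC + E171 arrays, with no overlap. Between 70.4% and 77.8% of the probes were well above background on each of the 8 arrays. The groups also differed in layout. The CRC replicates M1 and F1 were scanned on scan day 1, the CRC replicates M2 and F2 and the CRC + E171 replicates M1 and F1 on scan day 2, and the CRC + E171 replicates M2 and F2 on scan day 3. Each slide at 2 days held arrays of 1 group only, and the position of an array on the slide cannot be told apart from its group.

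After 2 days of exposure 690 of the 27919 gene names tested were DEG (2.47%), 626 of them up-regulated (2.24% of the genes tested) and 64 down-regulated (0.229%). No gene passed after Benjamini-Hochberg adjustment in LIMMA, where the smallest adjusted p was 0.999. At an unadjusted p below 0.05 there were 942 genes (3.37%), a smaller share than the 5% that this threshold admits where nothing differs. Weighting the arrays by their quality was the setting over all 31 arrays that gave adjusted calls, 10 in number, and leaving out the CRC replicate F2 gave 1. The median log2 fold change over all genes was 0.08 and the median standard error (SE) 0.33. For 15838 genes (56.7%) the 95% interval of the fold change lay within 2-fold in either direction, so that a larger change was outside the interval for these genes. For the remaining genes the interval reached past 2-fold with 4 mice a group.

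The DEG were mostly dim transcripts. Of the 690 DEG, 342 had a RefSeq symbol, 249 were protein coding by RefSeq, 84 were long non-coding RNAs and 45 were odorant receptors. When the genes were ranked by mean signal, 470 of the 690 DEG (68.1%) lay in the dimmest 3 of 10 brightness classes of equal size. In the dimmest class 6.34% of the genes were up-regulated and 1.18% down-regulated, and in the brightest class 0.251% and 0%. The median log2 fold change fell along the same order, from 0.33 in the dimmest class through 0.11 in class 5 to -0.0092 in class 9, with 0.052 in the brightest. What part this slope has in the DEG was not tested.

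**Figure D1:**
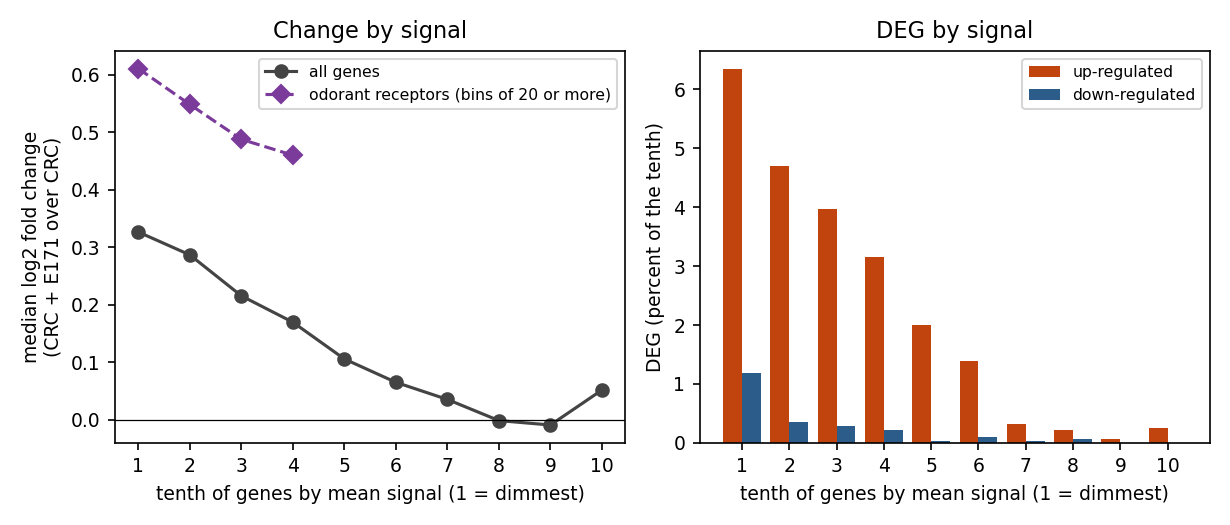
Left, the median log2 fold change (CRC + E171 over CRC) in 10 brightness classes of the 27919 genes ranked by mean scaled signal, for all genes (circles) and for odorant receptors where a class held 20 or more of them (diamonds). Right, the percentage of genes in each class that were up-regulated or down-regulated DEG. The dimmest class holds the highest values in both panels, 0.33 for the median of all genes and 6.34% for the up-regulated share.

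The split between up- and down-regulation depended on how the arrays were processed. It was 626 to 64 as reported, 337 to 221 after quantile normalization, 324 to 141 with the authors' own log2 values and 1066 to 5 after normexp background correction. Within scan day 2, the day that held 2 arrays of each group, there were 269 up-regulated and 280 down-regulated DEG. Of the 626 genes up-regulated over all arrays 558 were also higher within that day, and of the 64 down-regulated genes all 64 were lower, in arrays that both counts share. With scan day as a term in the fit there were 372 and 52. Without the CRC replicate F1 there were 270 and 57, and without the CRC replicate F2 there were 1357 and 58.

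**Figure D2:**
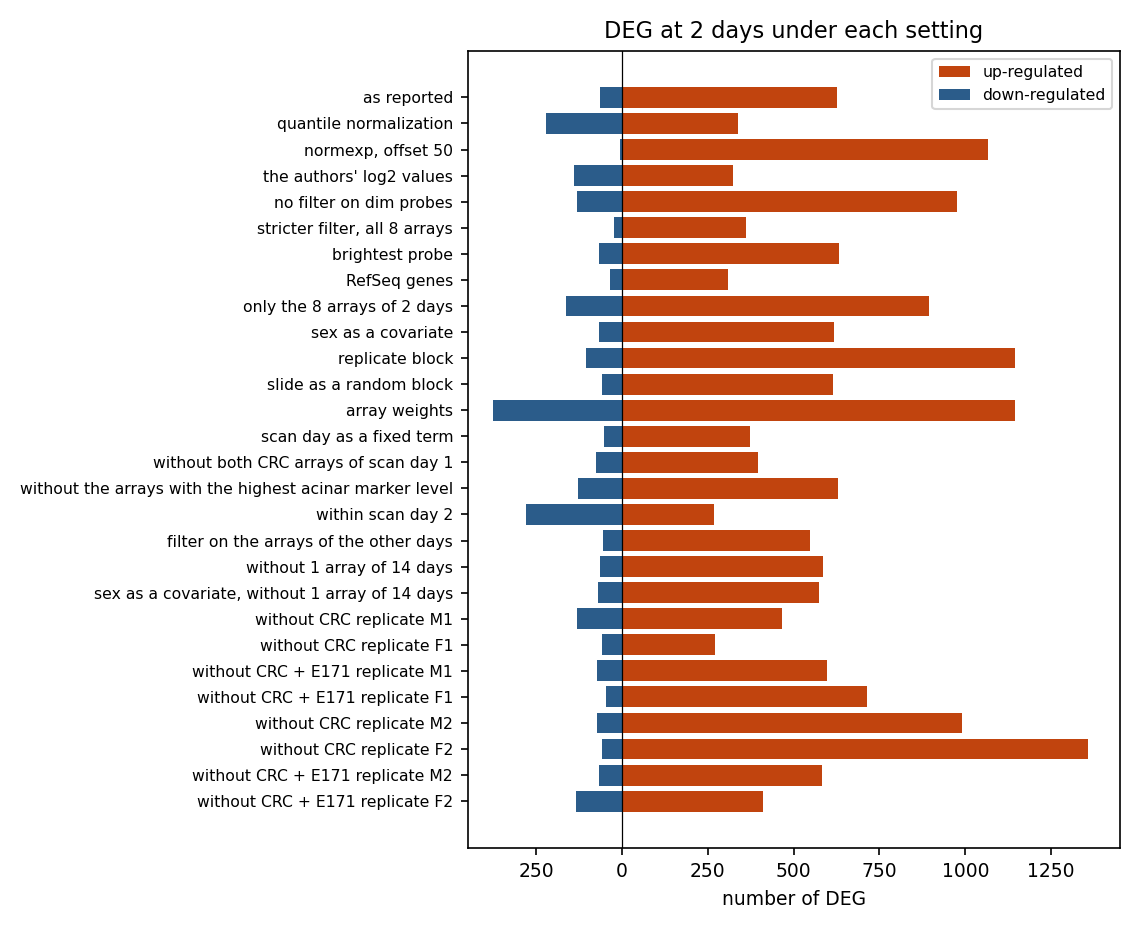
Number of up-regulated DEG (bars to the right) and down-regulated DEG (bars to the left) at 2 days as reported and under the other settings run on scaled values at the same threshold. The bars are of nearly equal length within scan day 2 (269 and 280), and longest to the right without the CRC replicate F2 (1357).

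Among genes with a RefSeq symbol with a probe well above background on all 8 arrays, 57 up-regulated and 3 down-regulated DEG showed no overlap between the groups. Over all genes, 4.33% showed no overlap. With 4 arrays against 4 the exact two-sided permutation test cannot go below 0.0286, the value that each gene without overlap reaches. The 12 largest increases and all 3 decreases are described in the following.

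Esrrb, an orphan nuclear receptor best known from pluripotent stem cells, had the largest increase. Its level was -3.76, -1.42, -3.42 and -1.53 in the CRC + E171 replicates M1, F1, M2 and F2 and -3.85, -4.36, -4.44 and -5.53 in the corresponding CRC replicates. The log2 fold change was 2.01 ± 0.47 (SE; LIMMA unadjusted p = 0.000248, adjusted p = 0.999). The 2 exposed females lay far above the rest, and the exposed males lay just above the highest control. The probe is at chr12:87862509-87862568 (mm9). Esrrb remained a DEG under all 28 other settings run for it, including within scan day 2, where its log2 difference was 2.39.

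Tmem114, which encodes a membrane protein of the lens, stood at -3.84, -4.33, -4.79 and -3.88 in the CRC + E171 replicates M1, F1, M2 and F2 and between -6.08 and -5.22 in the CRC group. Its log2 fold change was 1.38 ± 0.44 (SE). Cyp46a1, the cholesterol 24-hydroxylase of neurons, was up-regulated by 1.27 ± 0.52 (SE). In its case the CRC replicates M1 and F1 (-4.31 and -4.11) were lower than M2 and F2 (-2.71 and -2.52), and the difference within scan day 2 was 0.28. Fgf3, a fibroblast growth factor of the embryo and an activated oncogene in mouse mammary tumours, was up-regulated by 1.15 ± 0.35 (SE) and differed by 0.25 within scan day 2. Dixdc1, a positive regulator of Wnt signalling, was up-regulated by 1.13 ± 0.46 (SE), from between -5.58 and -4.14 in CRC to between -3.80 and -3.33 in CRC + E171. Car14, a membrane-bound carbonic anhydrase, was up-regulated by 1.12 ± 0.53 (SE).

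Astl, an oocyte metalloprotease, Scgb1b27, a secretoglobin of the androgen-binding protein family, and the long non-coding RNAs Lhx1os and Etohd2 were up-regulated by 1.26, 1.12, 1.08 and 1.08 on the log2 scale. In all 4 of these the CRC + E171 replicate F2 had the highest level of the 8 arrays. For Scgb1b27 it stood at -2.72, against -5.30 to -4.85 in the other 3 exposed mice and -5.83 to -5.44 in the controls.

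The other 2 of the 12 were RNAs without a long poly(A) tail. Rn28s1, the 28S ribosomal RNA, was up-regulated by 2.00 ± 0.88 (SE), with levels of 3.19, 3.53, 3.87 and 6.31 in the CRC + E171 replicates M1, F1, M2 and F2 and of 1.64 to 2.89 in the CRC group. Rnu2-10, a U2 spliceosomal RNA, was up-regulated by 1.06 ± 0.49 (SE). The second ribosomal RNA probe that passed the filter, Rn18s, was higher by 0.65 ± 0.28 (SE), but differed by -0.084 after quantile normalization, by -0.056 with the authors' values and by -0.063 without scaling. The part of ribosomal RNA in the other DEG was not tested.

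Of the 3 decreases, Tro, which encodes trophinin, an adhesion protein of the trophoblast, had a log2 fold change of -1.13 ± 0.41 (SE) and of -1.70 in males and -0.56 in females, whose difference was 1.14 ± 0.67 (SE; LIMMA unadjusted p = 0.107). Cd209g, a DC-SIGN related lectin of antigen-presenting cells, had a log2 fold change of -0.92 ± 0.37 (SE), with the CRC + E171 replicate M2 the lowest at -4.97. Zcchc8, a scaffold of the nuclear exosome targeting complex, had a log2 fold change of -0.64 ± 0.25 (SE) and levels between -3.97 and -3.28 in CRC + E171 and between -3.20 and -2.92 in CRC. Each of the 3 is the mean of 2 probes, and all 3 lost their call when the brighter probe was taken alone (-0.064 for Tro, -0.59 for Cd209g and -0.30 for Zcchc8). All 3 lost it after normexp as well (-0.28, -0.38 and -0.21) and within scan day 2 (-1.17, -0.51 and -0.63). Tro also lost it with the authors' values (-0.088) and without a filter on dim probes (-0.53).

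Several of these calls lay near the threshold and ended when single arrays were left out. Esrrb, Tmem114, Fgf3 and Etohd2 kept theirs when any 1 array was left out. Without the CRC + E171 replicate F2 the call ended for Rn28s1, Cyp46a1, Astl, Car14, Scgb1b27, Lhx1os and Rnu2-10, and 20 of the 38 DEG named by the rule over the whole comparison kept theirs. Without the CRC replicate F1 it ended for Cyp46a1, Astl, Dixdc1, Car14, Scgb1b27 and Cd209g, and 17 of the 38 kept theirs. Without the CRC replicate M1 it ended for Rn28s1, Cyp46a1, Astl, Car14, Scgb1b27, Rnu2-10 and Tro (24 of 38 kept), and without the CRC + E171 replicate M2 for Astl, Car14, Cd209g and Zcchc8 (26 of 38 kept). Each of the other 4 arrays left 33 to 35 of the 38 calls in place, ending that of Rn28s1, Astl and Rnu2-10 (CRC M2) and of Car14 (CRC F2 and CRC + E171 F1) among these 15 genes. With scan day as a term 18 of the 38 kept their call, and within scan day 2 6 of the 38. The fold often changed little when 1 array was left out: that of Car14 stayed between 0.93 and 1.30 over the 8 arrays left out in turn and that of Astl between 0.95 and 1.46. It moved more for Scgb1b27 (0.54) and Rn28s1 (1.31) without the CRC + E171 replicate F2 and for Cd209g (-0.47) without the CRC + E171 replicate M2.

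**Figure D3:**
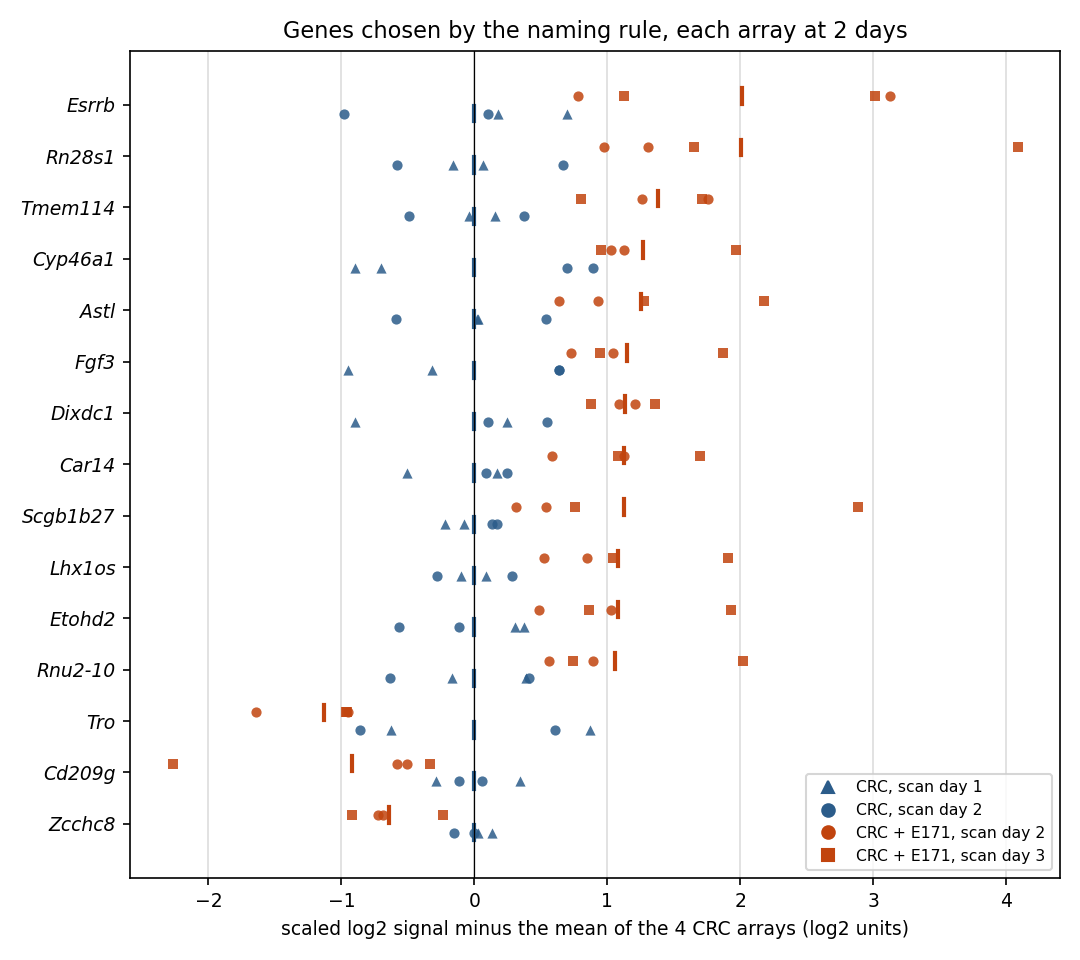
Scaled log2 signal of each of the 8 arrays minus the mean of the 4 CRC arrays, for the 12 largest increases and the 3 decreases without overlap between the groups. Colours give the group, symbols the scan day and vertical bars the group means. The 4 CRC + E171 points of each gene lie outside its CRC points, and for Cyp46a1 and Fgf3 the CRC points split by scan day.

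The members of the epithelial lists did not pass the test, with the exception of Myc. Of 25 markers of absorptive colonocytes, 20 of goblet cells, 21 of hormone-secreting cells and 14 of tuft cells, none was a DEG, and the medians of their log2 fold changes were -0.04, -0.11, -0.09 and -0.05. The 95% interval lay within 2-fold for 1, 2, 4 and 6 of these genes, so that the medians do not show single genes to be equal. Car1, Car4 and Slc26a3, the carbonic anhydrases and the chloride exchanger of the surface colonocyte, differed by 0.36 ± 1.23, -0.30 ± 1.24 and 0.03 ± 1.48 (SE). Muc2, the gel-forming mucin, Clca1 and Fcgbp differed by 0.20, 0.32 and -0.04, and the hormone-cell granule genes Chga, Chgb and Gcg by -0.02, -0.07 and -0.13. The tuft cell genes Dclk1 and Trpm5 differed by 0.10 and -0.09. Clca1 was bright on all 8 arrays, between 6.35 and 7.21.

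Myc, the growth-promoting transcription factor and Wnt target, was the 1 DEG among 21 genes of the crypt stem cell and Wnt target list, beside 2.47% of all genes. It was down-regulated with a log2 fold change of -0.75 ± 0.32 (SE; LIMMA unadjusted p = 0.0258, adjusted p = 0.999). Its levels were -1.48, -1.13, -2.38 and -0.66 in the CRC + E171 replicates M1, F1, M2 and F2 and -1.08, -0.35, -0.64 and -0.61 in the CRC replicates. The groups overlapped, and the CRC + E171 replicate M2 was the lowest. Myc lost its call without that replicate (-0.43) and without the CRC replicate F1 (-0.64). The call also ended with scan day as a term, within scan day 2 (-0.68) and without both CRC arrays of scan day 1. In the fit of the 8 arrays alone it ended with the fold unchanged at -0.75. The stem cell markers Lgr5 and Ascl2 differed by -0.73 ± 0.92 and -0.83 ± 0.64 (SE), and Axin2 by -0.35 ± 0.64 (SE). None of 36 cell cycle genes was a DEG, and their median was -0.10.

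Genes of the muscle coat leaned upwards without a call. All 20 smooth muscle genes were higher in CRC + E171, with a median of 0.45 against 0.08 for all genes, and none was a DEG. Myh11, the smooth muscle myosin, differed by 0.85 ± 0.51 (SE), Acta2 by 0.66 ± 0.48 (SE) and Tagln by 0.50 ± 0.33 (SE). The level of the list, given as the median over its genes of the deviation from each gene's mean over the 8 arrays, was 0.22, 0.47, 0.92 and -0.62 in the CRC + E171 replicates M1, F1, M2 and F2 and 0.11, -0.37, -0.15 and -0.63 in the CRC replicates, so that the groups overlapped. Without scaling between the arrays the smooth muscle median was -0.26, where the median of all genes was -0.63. Fibroblast and matrix genes had a median of 0.17, with Col1a1, Col1a2 and Col3a1 at 0.23, 0.18 and 0.28, and the endothelial genes Pecam1, Cdh5 and Kdr differed by -0.05, -0.12 and -0.25. Neuronal and glial lists held no DEG, with medians of 0.03 and 0.23. In tissue of this kind fewer cells of a type and less RNA per cell cannot be told apart.

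Fat cell and mesothelial markers had low medians of -0.67 and -0.47 without a DEG. Of the 14 fat cell genes 11 were lower and 3 higher in CRC + E171, with Pparg the highest at 0.49. Of the 7 mesothelial genes 5 were lower and 2 higher. When 1 array was left out, the fat cell gene Plin1 differed by -1.55 to -0.52 and Plin4 by -0.16 to 0.80. Adipoq, the fat cell hormone, lay between -3.50 and -0.26 in CRC + E171 and between -2.86 and 1.37 in CRC, with a log2 fold change of -1.26 ± 1.84 (SE). The median of the fat cell list was -1.22 in males and 0.38 in females.

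Lymphocyte genes varied more between mice than between groups. Of 20 genes of B cells and plasma cells 17 were lower in CRC + E171, with a median of -0.56, and of 29 genes of T cells and NK cells 25 were lower, with a median of -0.51. None was a DEG. The level of the T cell and NK cell list was -0.33, 0.15, -2.12 and 1.26 in the CRC + E171 replicates M1, F1, M2 and F2 and -1.89, 1.19, 0.36 and 1.37 in the CRC replicates. In each group 1 male lay far below the other 3 mice. Without the CRC + E171 replicate M2 the median of that list was 0.24 and that of the B cell and plasma cell list -0.018. Over the 8 arrays left out in turn the 2 medians reached down to -1.21 and -1.22. Ms4a1 and Cd79a, which mark B cells, differed by -0.36 and -0.93, with SEs of 1.05 and 0.96. The T cell receptor chains Cd3d, Cd3e and Cd3g differed by -0.49, 0.14 and -0.53.

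Inflammatory and interferon genes held no DEG at this time. The macrophage and dendritic cell list had a median of -0.08, with Adgre1 at -0.19 and Csf1r at 0.05, and the neutrophil list a median of 0.09. S100a8 and S100a9, the calgranulins of neutrophils, differed by 0.03 ± 2.20 and 0.09 ± 2.02 (SE), intervals wide enough to hold large changes in either direction. Of 26 acute inflammation genes none was a DEG, with Cxcl2 the highest at 2.51 ± 1.47 (SE) and Ifng the lowest at -1.42 ± 1.01 (SE). Of 40 interferon-stimulated genes 32 were lower in CRC + E171, with a median of -0.31, of -0.98 in males and of 0.29 in females. The level of that list was -2.27 in the CRC + E171 replicate M2 and between -0.88 and 1.24 on the other 7 arrays, and without that replicate its median was 0.29. The 12 genes of MHC class II presentation had a median of -0.24 and also turned sign without it, to 0.32. Over the 8 arrays left out in turn the interferon and MHC class II medians reached down to -0.83 and -0.75.

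**Figure D4:**
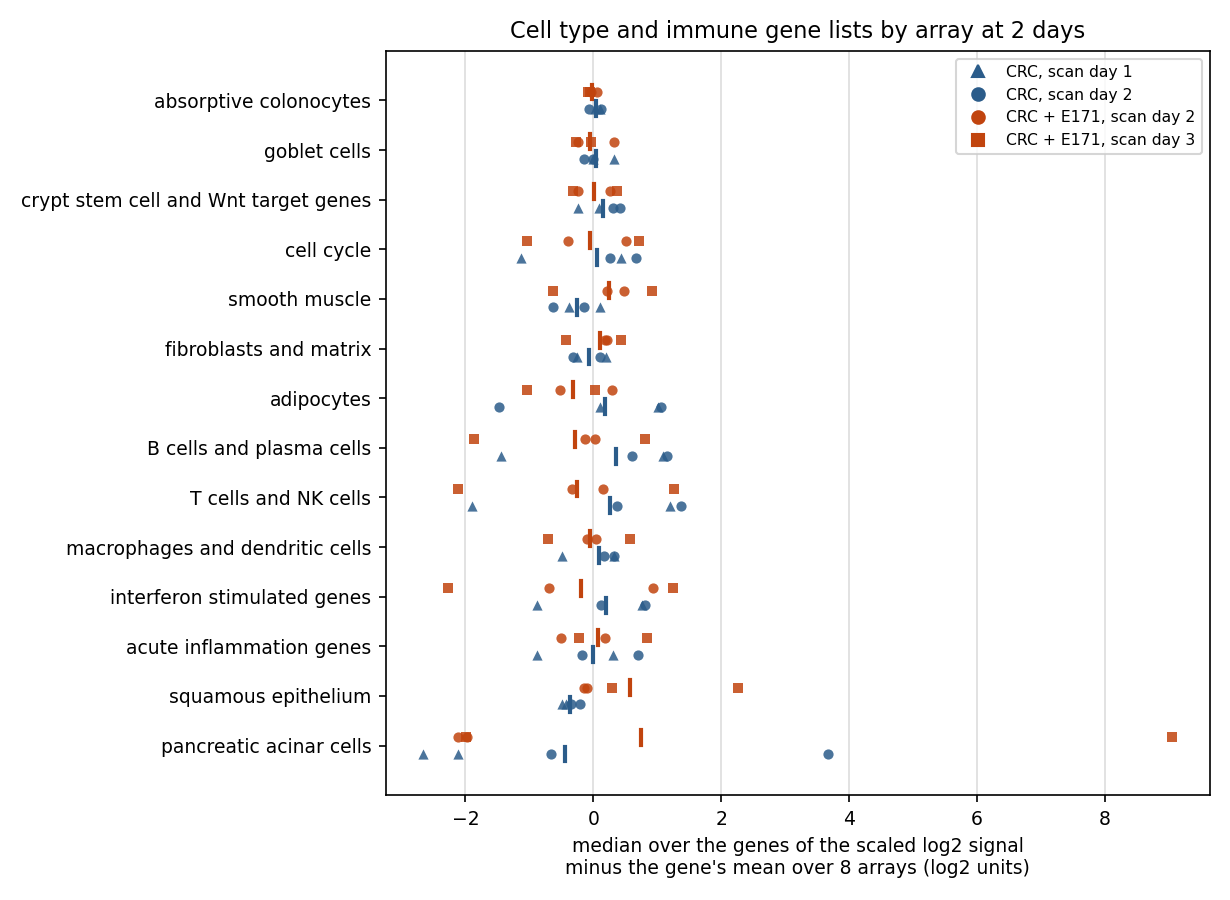
Level of 14 gene lists on each of the 8 arrays, as the median over the genes of the scaled log2 signal minus the gene's mean over the 8 arrays. Colours give the group, symbols the scan day and vertical bars the group means. The pancreatic list reaches 9.05 on the CRC + E171 replicate F2 and 3.66 on the CRC replicate M2, and the squamous list 2.27 on the CRC + E171 replicate M2.

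Markers of tissues that do not belong to the distal colon stood out on some of the arrays. The exocrine pancreas list, 21 digestive enzyme genes, stood at 9.05 on the CRC + E171 replicate F2 and at 3.66 on the CRC replicate M2, and between -2.66 and -0.66 on the other 6 arrays. Cela3b, a pancreatic elastase, was at 8.14 and 3.09 on these 2 arrays and between -4.62 and -2.16 on the others. The list held no DEG. Its median of 1.14 rested on the first of these arrays, since it was -1.56 without the CRC + E171 replicate F2 and -3.50 within scan day 2. The squamous epithelium list stood at 2.27 on the CRC + E171 replicate M2, where the basal keratin gene Krt5 reached 0.71, and between -0.14 and 0.30 on the other 3 CRC + E171 arrays. The CRC arrays were lower, between -0.49 and -0.21, without overlap. Of its 20 genes 19 were higher in CRC + E171, with a median of 0.82 and a range over the scaled settings of 0.13 to 1.25, and none was a DEG. Skeletal muscle and germ cell lists held no DEG, with medians of 0.18 and 0.33. Without the 2 arrays highest in pancreatic genes there were 630 up-regulated and 127 down-regulated DEG, and 22 of the 38 DEG named by the rule kept their call. The part of foreign tissue in the other results was not tested beyond this.

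The lists of defence against particles, oxidants and foreign compounds held 1 DEG, a share of its own list no larger than that of all genes. Cyp2w1, a cytochrome P450 of foetal gut and colon tumours, was up-regulated by 1.02 ± 0.32 (SE; LIMMA unadjusted p = 0.00378, adjusted p = 0.999). It stood at -4.32, -3.86, -3.67 and -3.69 in the CRC + E171 replicates M1, F1, M2 and F2 and at -5.16, -5.22, -4.87 and -4.39 in the CRC replicates, without overlap, and differed by 0.54 within scan day 2. It was 1 of 47 genes of the Cyp1, Cyp2 and Cyp3 families tested, beside 2.47% of all genes, and the median of these families was -0.18. None of 33 NRF2 targets was a DEG, and for 21 of them the 95% interval lay within 2-fold. Their median was 0.08, the same as that of all genes, with a range from -0.92 for Slc7a11 to 0.62 for Gsta2. The 19 peroxidases, peroxiredoxins and dismutases had a median of 0.05, 15 of them with an interval within 2-fold. The 29 genes of metal handling had a median of 0.02 and 41 phase II conjugation enzymes a median of -0.05. The 31 p53 targets and alkylation repair genes had a median of 0.07 and a narrow range, from -0.56 for Gadd45a to 0.51 for Tnfrsf10b. Heat shock and unfolded protein response genes, immediate-early genes, clock genes and the EGF receptor family held no DEG either, with medians of -0.07, 0.20, 0.14 and 0.19. The same held for tight junction genes (0.07), antimicrobial and oxidase genes (-0.12), lipid and cholesterol synthesis (0.01), fatty acid oxidation and ketogenesis (-0.10), prostaglandin enzymes and receptors (-0.02) and posterior Hox genes (0.15).

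Among the 53 gene lists used here the longest, that of the odorant receptors, held the most DEG. These are G protein-coupled receptors of the olfactory neuron, each neuron using a single gene of the family, and scattered members are also transcribed at low levels in other organs. Of 1104 odorant receptor names on the array 410 passed the filter, and of these 42 were up-regulated (10.2%) and 3 down-regulated (0.732%). After quantile normalization 24 were up-regulated (5.85%, beside 1.21% of all genes) and 10 down-regulated. With the authors' values these were 23 (5.81%, beside 1.17%) and 5 of 396, and after normexp 78 (19.0%, beside 3.82%) and 0. Without scaling 0 were up-regulated and 38 down-regulated, as were 7149 of all 27919 genes. A probe could pass the filter through the CRC + E171 group of 2 days alone. With the filter set on the arrays of the other days 35 of 370 were up-regulated (9.46%), beside 2.00% of all genes, and with no filter 66 of 1104 (5.98%), beside 2.63%. The median log2 fold change was 0.52, and 339 of the 410 were higher in CRC + E171. Of all genes tested 62.6% were higher. The groups did not overlap for 25 of the 410 (6.10%), beside 4.33% of all genes. The family was dim: 347 of the 410 lay in the 3 dimmest brightness classes, where 71.6% of all genes and 82.4% of the odorant receptors were higher. In the dimmest class 8.13% of the odorant receptors were up-regulated, and in the next 2 classes 12.5% and 13.4%. The shares of all genes there were 6.34%, 4.69% and 3.98%. In a fit of the probes well above background on all 8 arrays, 16 of 180 odorant receptors were up-regulated (8.89%, beside 1.53% of all genes) and none down-regulated.

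The 3 probes printed here read up-regulated odorant receptors with small p among those with 1 probe whose RefSeq model is a bare coding sequence, so that the probe lies in an exon and outside any UTR. They are given 5′ to 3′ as the array files hold them, with mm9 coordinates, and the capitals mark the longest run of bases shared with a probe for another gene.
Olfr870: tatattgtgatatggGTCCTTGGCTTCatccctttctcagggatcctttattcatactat
Olfr1424: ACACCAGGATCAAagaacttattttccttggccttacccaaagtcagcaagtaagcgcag
Olfr1417: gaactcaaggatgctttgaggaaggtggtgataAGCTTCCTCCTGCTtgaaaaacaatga
The probes are at chr9:19975357-19975416, chr19:12134165-12134224 and chr19:11902567-11902626. Their longest shared runs were 12, 13 and 14 bases. The median shared run was 14 bases for the 43 probes of the up-regulated odorant receptors and 14 bases for the 368 probes of those that were not DEG. Median GC content was 41.7% and 43.3% for the probes of up-regulated odorant receptors and of the whole family, and 43.3% over all probes kept.

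Olfr123 stood at -4.14, -4.14, -3.25 and -2.63 in the CRC + E171 replicates M1, F1, M2 and F2 and at -5.48, -5.78, -4.28 and -4.19 in the CRC replicates. The groups did not overlap, and in CRC the replicates of scan day 1 were the low ones. The log2 fold change was 1.40 ± 0.46 (SE) and the difference within scan day 2 was 0.10. Olfr870 was at -4.37, -4.73, -3.75 and -2.32 in CRC + E171 in the same order and between -5.81 and -4.82 in CRC, again without overlap. Its log2 fold change was 1.49 ± 0.51 (SE), and it differed by 1.10 within scan day 2. It lost its call there and without the CRC + E171 replicate F2. Olfr1424 was up-regulated by 1.71 ± 0.61 (SE), from -8.48 and -8.81 in the CRC replicates of scan day 1 and -6.17 and -6.15 in those of scan day 2 to between -6.41 and -4.42 in CRC + E171, and differed by 0.064 within scan day 2. Olfr1417 was up-regulated by 1.13 ± 0.42 (SE), with 1.33 within scan day 2. The probes of both were well above background on 2 of the 4 CRC arrays. Olfr419 was up-regulated by 0.77 ± 0.25 (SE), with 0.17 within scan day 2. Olfr874 went the other way with -1.27 ± 0.45 (SE) and -1.42 within scan day 2, and was well above background on 2 of the 4 CRC + E171 arrays.

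The arrays of the family also differed by scan day. The level of the odorant receptor list was 0.23, 0.04, 0.23 and 0.49 in the CRC + E171 replicates M1, F1, M2 and F2. It was -0.45 and -0.61 in the CRC replicates M1 and F1 of scan day 1 and 0.09 and 0.29 in the CRC replicates M2 and F2 of scan day 2. The CRC arrays of scan day 2 thus lay among the exposed arrays, and the 2 CRC arrays of scan day 1 stood apart. Within scan day 2 the median difference of the family was -0.11, with 172 odorant receptors higher and 238 lower in CRC + E171. Of the DEG called within that day, 15 were odorant receptors that were up-regulated and 3 were odorant receptors that were down-regulated. The former were 3.66% of the family, beside 0.964% of all genes. With scan day as a term in the fit 31 odorant receptors were up-regulated (7.56%, beside 1.33% of all genes) and 2 down-regulated. Without both CRC arrays of scan day 1, 23 were up-regulated (5.61%, beside 1.42% of all genes), and without the CRC replicate F1 alone 18 (4.39%, beside 0.967%). Without the CRC replicate F2 there were 106 (25.9%, beside 4.86%).

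In the related families the CRC arrays of scan day 1 were again the lowest. Of 86 vomeronasal and formyl peptide-like receptors 4 were up-regulated (2.24% of all genes were, and 6.34% of those in the dimmest class), namely Vmn1r231, Vmn1r62, Vmn1r178 and Vmn2r78, with a median for the family of 0.62 and of 0.01 within scan day 2. Vmn1r231 was not well above background on any CRC array. It stood at -5.45, -5.05, -5.36 and -6.04 in the CRC + E171 replicates M1, F1, M2 and F2. It was up-regulated by 1.47 ± 0.51 (SE), a size that rests on signals near background. Vmn1r178 and Vmn2r78 differed within scan day 2 by 0.016 and -0.095. Of 19 taste and trace amine receptors 3 were up-regulated and 1 down-regulated, beside 2.24% and 0.229% of all genes and 6.34% and 1.18% of the dimmest class. The former were Tas1r2, a subunit of the sweet receptor, Taar7b and Tas2r104, and the latter was Taar2. Tas1r2 stood at -8.44 and -8.07 in the CRC replicates M1 and F1, at -5.12 and -5.02 in M2 and F2 and between -5.18 and -4.12 in CRC + E171. Tas1r2, Taar7b and Vmn2r78 were well above background on 2 of the 4 CRC arrays and Vmn1r178 on 1. Tas2r104 was so on no CRC array and on 2 CRC + E171 arrays, and Taar2 on 2 CRC arrays and no CRC + E171 array. Tas2r104 differed by 2.12 ± 0.88 (SE) and Taar2 by -1.25 ± 0.57 (SE), sizes that rest on signals near background. For Tas2r104 the groups overlapped, with the CRC + E171 replicate F1 at -8.33 and the CRC replicates between -8.49 and -7.55. Leaving out single arrays ended the call of Tas2r104 in 3 of 8 fits and that of Taar2 in 5, and it ended that of Tas1r2 and Vmn1r62 in 2 each and of Taar7b, Vmn1r178 and Vmn2r78 in 3 each. The median of that list was 0.51, and -0.17 within scan day 2.

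**Figure D5:**
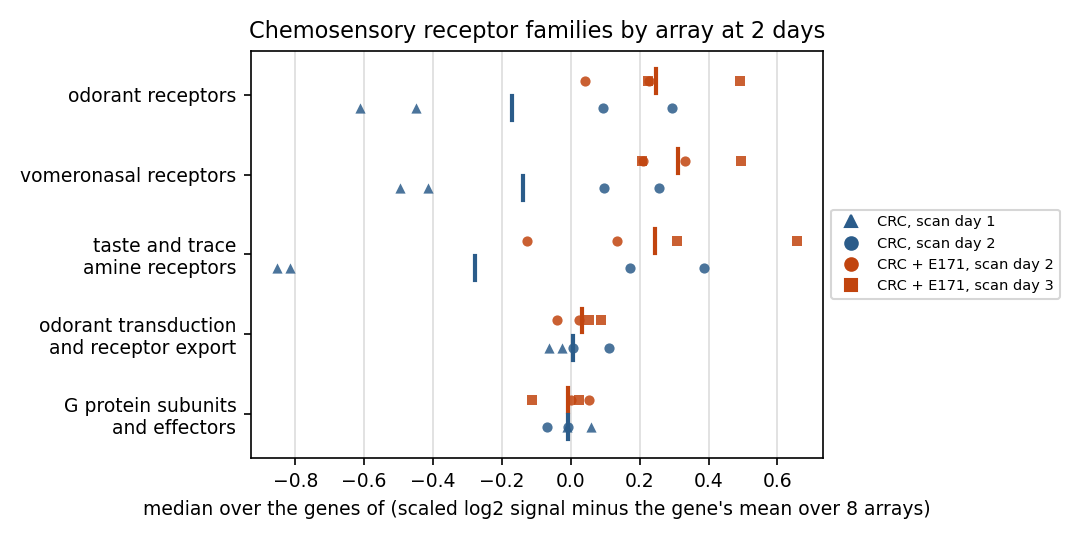
Level of 3 chemosensory receptor families and of the downstream signalling lists on each of the 8 arrays, as the median over the genes of the scaled log2 signal minus the gene's mean over the 8 arrays. Colours give the group, symbols the scan day and vertical bars the group means. The odorant receptor level is -0.61 and -0.45 on the CRC arrays of scan day 1 (triangles) and between 0.04 and 0.49 on the other 6 arrays.

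Genes that carry an odorant receptor signal were not called, apart from Rtp1. Gnal, Adcy3 and Cnga2, which encode the olfactory G protein, adenylyl cyclase and cyclic nucleotide-gated channel, differed by 0.13 ± 0.63, -0.25 ± 0.38 and 0.31 ± 0.29 (SE). Among 24 genes of odorant transduction and receptor export 1 was a DEG, beside 2.47% of all genes, namely Rtp1, a chaperone of odorant receptors, up-regulated by 1.89 ± 0.83 (SE). It stood at -8.37 and -8.70 in the CRC replicates M1 and F1, at -6.34 and -5.76 in M2 and F2 and between -6.27 and -4.75 in CRC + E171, and was well above background on 1 CRC array and 3 CRC + E171 arrays, so that the size of its fold rests on signals near background. Its call ended in 4 of the 8 fits that left out 1 array and within scan day 2, where the difference was 0.75. Of 80 G protein subunits and effectors 55 had an interval within 2-fold and 1 was a DEG, beside 2.47% of all genes. This was Grk4, a G protein-coupled receptor kinase, at 0.60 ± 0.28 (SE) with 2 of its 3 probes in that direction. Its call was kept in 12 of 28 other settings and ended in 7 of the 8 fits that left out 1 array, where the lowest value was 0.38.

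Among 40 peptide and hormone receptors 3 were DEG, and among 33 TRP and sodium channels 2, beside 2.47% of all genes. Scn10a, the sodium channel of pain-sensing neurons, was up-regulated by 2.08 ± 0.58 (SE; LIMMA unadjusted p = 0.00132, adjusted p = 0.999). It stood at -4.26, -4.50, -5.02 and -2.93 in the CRC + E171 replicates M1, F1, M2 and F2 and at -5.07, -5.43, -7.64 and -6.89 in the CRC replicates, without overlap. Within scan day 2 its difference was 2.89. It was well above background on 2 of the 4 CRC arrays, so the size of both values rests in part on signals near background. Without the CRC + E171 replicate F2 and the CRC replicate M2, the arrays highest in pancreatic genes, it differed by 1.20 and was no DEG. Trpm8, the cold and menthol receptor, was up-regulated by 0.85 ± 0.36 (SE), with the CRC + E171 replicate F2 the highest at -2.52. Without that replicate it differed by 0.40 and was no DEG, nor was it without the CRC replicate F1, and within scan day 2 it differed by 0.14. Cckbr, the gastrin receptor, Mc4r, the melanocortin 4 receptor, and Nmur1, a neuromedin U receptor, were up-regulated by 1.02, 1.10 and 1.65, with differences within scan day 2 of 0.74, 0.13 and 0.23. All 3 lost their call there and with scan day as a term, and leaving out single arrays ended that of Cckbr in 1 of 8 fits, of Mc4r in 2 and of Nmur1 in 6. Cckbr and Mc4r were well above background on 2 of the 4 CRC arrays. For Nmur1 the CRC replicates M1 and F1 (-4.53 and -4.85) stood apart from M2 and F2 (-2.21 and -1.78), which lay close to the CRC + E171 arrays (-1.90 to -1.33).

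The effect of E171 was also taken within each sex. There were 337 DEG in females (1.21% of the genes tested) and 235 in males (0.842%), with 18 called in the same direction in both sexes. In neither sex did a gene pass adjustment in LIMMA, where the smallest adjusted p was 0.0894 in females and close to 1 in males, and 363 and 270 genes had an unadjusted p below 0.05. The difference between the sexes had an unadjusted p below 0.05 for 72 genes (0.258%) and none passed adjustment. Esrrb differed by 3.47 in females and by 0.55 in males, a difference between the sexes of 2.92 ± 0.73 (SE). Klf15, a glucocorticoid-responsive transcription factor, differed by 1.98 in females and -1.14 in males, and the lectin gene Cd209b by -0.01 and -2.44. In the opposite direction, Fosb, an immediate-early gene, differed by -0.25 in females and 1.87 in males, and the heat shock gene Hspa1a by -1.49 and 0.52. Cpxm2, a carboxypeptidase-like gene, differed by -0.91 and 0.35. With 2 mice of each sex a group, these are values of few animals.

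The 2-day differences were set beside those of the other mice after 7, 14 and 21 days, which had controls of their own. Of the 626 genes up-regulated at 2 days, 36 (5.75%) were up-regulated at 7 days and 14 (2.24%) down-regulated, beside 7.12% and 4.48% of all genes. At 14 days 27 (4.31%) were up-regulated and 56 (8.95%) down-regulated, beside 3.76% and 3.29% of all genes. Without the array of 14 days that went against its sex label these were 21 (3.35%) and 49 (7.83%), beside 3.12% and 3.31% of all genes. At 21 days 25 (3.99%) were up-regulated and 4 (0.639%) down-regulated, beside 1.02% and 2.37% of all genes. Of the 64 genes down-regulated at 2 days, 2 (3.12%) were called lower at 7 days too and 1 (1.56%) was called higher, beside 4.48% and 7.12% of all genes. At 14 days 6 (9.38%) were up-regulated and 2 (3.12%) down-regulated, beside 3.76% and 3.29%, or 6 and 0 without the array that went against its sex label. At 21 days none was up-regulated and 1 (1.56%) was down-regulated, beside 1.02% and 2.37%. At 2 and 14 days the CRC arrays of one day shared slides with the CRC + E171 arrays of the other. The part of this layout in the shares at 14 days was not tested.

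The E171 effect at 2 days minus the mean effect of the later days had an unadjusted p below 0.05 for 955 genes (3.42%), and none passed adjustment in LIMMA (smallest adjusted p 0.967). Among the largest differences upwards were Hoxd12 (4.43), a posterior patterning gene, and Aldh1a3 (2.33), a retinoic acid-forming dehydrogenase. The largest downwards were in Slc9a3 (-3.12), the sodium-proton exchanger of the colonocyte, Dpep1 (-2.88), a membrane dipeptidase, and Cdx2 (-2.58), the intestinal master transcription factor. In all of these genes the effect at 7, 14 and 21 days had the opposite sign, so that part of each difference came from the later days. Slc9a3 and Cdx2 differed by 2.76 and 2.72 at 7 days, and Hoxd12 by -4.09 at 14 days. The 2-day values of Hoxd12 and Cdx2 were 2.46 ± 1.64 and -1.01 ± 0.89 (SE), and neither gene was a DEG. At 2 days Aldh1a3 had a log2 fold change of 1.49 ± 0.65 (SE) and was a DEG, but lost its call in 11 of 28 other settings. These included the brightest of its 3 probes alone (0.98), quantile normalization (1.33), the authors' values (1.44), scan day as a term (1.31), the arrays of scan day 2 alone (1.08) and 3 of the 8 fits that left out 1 array. Slc9a3 stood at -1.17, -4.15, -4.84 and -1.08 in the CRC + E171 replicates M1, F1, M2 and F2 and between -1.62 and -0.63 in CRC, so that 2 exposed mice of opposite sex were low. Dpep1 was low in the same mice, at -0.05 and -1.30, against 1.92 to 2.92 on the other 6 arrays. Both genes missed the test at 2 days, with log2 fold changes of -1.73 ± 1.25 and -1.69 ± 1.03 (SE).

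A contrast that stays within slides was possible over 2 and 14 days together, since each slide held the CRC arrays of 1 day and the CRC + E171 arrays of the other. It gave 1759 genes with an unadjusted p below 0.05 (6.3%), 841 of them with a fold change of at least 1.5, and none after adjustment (smallest adjusted p 0.728). Without the array that went against its sex label it gave 1409. It shares the 8 arrays of 2 days with the main comparison. The odorant receptor median within slides was 0.17 and that of the vomeronasal receptors 0.23. Esrrb differed by 1.30 within slides, Tmem114 by 0.94 and Rn28s1 by 1.63.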

How the data were processed

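RNA of the distal colon (miRNeasy, DNase) was labelled with Cy3 and hybridised to 1-colour Agilent mouse arrays. The deposited scanner files hold spot intensities that the authors extracted with Feature Extraction 10.7.3.1, with background subtracted in the processed signal and probe coordinates of mm9. The authors' matrix of log2 values, filtered on flags and with missing values imputed per their methods, was used as an alternative. Its columns ranked probes as the scanner files did (lowest Spearman 0.994), with slopes of 0.956 to 1.03 on the log2 signal and column medians of 9.43 to 9.67. Its centring is not known. Per their methods the authors fitted LIMMA on groups by day.

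Control spots and outlier flags were left out, spots of 1 probe averaged, and log2 processed signals scaled to each array's 75th percentile. Kept were 42787 of 56605 probes, those that in 1 or more of the 8 groups had a mean log2 signal of at least 4 and 60% of the arrays above background by the scanner's flag, and probes of 1 gene name were averaged. Kept probes were matched to RefSeq (GRCm38.p6) by accession (27565), symbol (6505) or synonym (340). The main test was limma 3.58.1 in R 4.3.3 with 8 group means over 31 arrays, Benjamini-Hochberg adjusted over all genes. The code was tested on simulated data.

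Replicates are separate mice. Same-numbered arrays of the 2 groups had deviation correlations of 0.34, 0.39, 0.06 and 0.42, and since 1 of the 4 was not above 0.1 the numbers were not taken to pair the mice. Arrays have no read depth, and precision rests on their number. The rule named the 12 largest increases and decreases among RefSeq genes without overlap and above background, up to 4 DEG of each list, up to 3 defining members of each cell type list and of the odorant transduction list, and 3 genes in each direction for the sex and later-day differences. A few items that the rule named are not reported here. Extremes of lists and the odorant receptors Olfr1424 and Olfr1417 were added after values were seen. The members and lists were chosen with earlier results of these data known.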

Additional observations from a re-analysis of the deposited data

Results flagged for a closer look

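Gaps between arrays of 1 group were tested in 200 groups of 4, 96 of gene levels and 104 of list levels, of which 7 were past Dixon's 95% critical value, where chance gives about 5%. The pancreatic acinar list was at 9.05 in the CRC + E171 replicate F2, against -2.12 to -1.98 in the other 3 mice of that group. The p53 target list was at -0.059 in the CRC + E171 replicate M1, against 0.03 to 0.05, a small step in a narrow range. Tro was at -5.22 in the CRC + E171 replicate F1, against -4.55 to -4.54. Cd209g was at -4.97 in the CRC + E171 replicate M2, against -3.28 to -3.03. Cyp46a1 was at -1.45 in the CRC + E171 replicate F2, against -2.46 to -2.29. Aldh1a3 was at -6.13 in the CRC replicate F1, against -4.69 to -4.55, and Cdx2 at 2.73 in the CRC replicate M1, against 1.18 to 1.34. No difference between the sexes or between 2 days and the later days passed adjustment over all genes.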

How the results depend on the processing

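The number of DEG for the E171 effect at 2 days was 690 as reported. It became 116 with a log2 fold change of 1.5 as the threshold, 1071 after normexp, 1107 without a filter on dim probes, 385 with the filter on all 8 arrays, 342 over RefSeq genes, 1056 in a fit of the 8 arrays alone, 1522 with array weights and 424 with scan day as a fixed term. Without scaling between arrays it was 7161, of which 12 were up-regulated, and leaving out each array in turn gave 327 (without the CRC replicate F1) to 1415 (without the CRC replicate F2, with 1 adjusted call). The replicate block, with the numbers taken as pairs, gave 1251, 1146 of them up-regulated, and none adjusted. The cause of these differences was not tested. The share of up-regulated DEG was 90.7% as reported and 60.4% after quantile normalization, 69.7% with the authors' values, 99.5% after normexp, 75.3% with array weights and 49.0% within scan day 2. Scan day as a term, the arrays left out for scan day 1 or pancreatic genes, the fit within scan day 2, the filter on other days, the array against its sex label and the unscaled values were chosen after seeing the data.

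The E171 by sex at 2 days count of genes with an unadjusted p below 0.05 was 72, 41 after normexp, and 41 to 383 when single arrays were left out (4 adjusted calls without the CRC + E171 replicate F1). The count over 2 and 14 days within slides was 1759, 5181 after normexp and 1170 to 2307 when single arrays were left out. The count for 2 days against the later days was 955, 478 after normexp and 447 to 1502 when single arrays were left out. For this contrast, leaving out the CRC replicate F2 gave 1 adjusted call.

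Of the 38 named DEG, all kept their call with sex as a covariate (37 without the array of 14 days that went against its sex label), with the replicate block and with slide as a random block (correlation 0.02). With scan day as a term 18 of 38 kept it, and within scan day 2 6 of 38. Esrrb kept it in all 28 settings and Tmem114 and Scn10a lost it in 1 each. Direction turned for Rn18s after quantile normalization (-0.084), with the authors' values (-0.056) and without scaling (-0.063), for Grk4 without scaling (-0.12) and for Vmn2r78 within scan day 2 (-0.095). Dim signal limits the odorant receptors, of which 61.5% to 93.2% were well above background on each array.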

Other observations

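The bright transcripts of the translation machinery were slightly higher in CRC + E171. Of 75 ribosomal protein genes 70 were higher, with a median log2 fold change of 0.15 and 74 intervals within 2-fold, and none was a DEG. After quantile normalization, with the authors' values and without scaling this median was below 0. All 11 mitochondrial transcripts were higher, with a median of 0.30, and 41 of 55 histone genes, with a median of 0.23. None of these was a DEG. Mitochondrial and histone medians kept their sign in every setting run other than the unscaled one.

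Of the variance between the 8 arrays, the first component held 37.8% and set the CRC + E171 replicate F2 against the CRC replicate M1. The second held 24.2% and set the CRC replicate F1 against the CRC + E171 replicate M2. Neither component separated the groups. Pairs of arrays correlated between 0.934 and 0.985 over all genes, and no pair was identical.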
